A study of Rattus norvegicus with 9 samples.

Results

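The genes described here are the rat genes for which the reference annotation lists more than 1 transcript, and the measurement is isoform usage, which is the share of a gene's expression carried by each of its transcripts. The 9 libraries listed 20973 annotated genes with an Ensembl gene ID, and 952 of them had 2 or more annotated transcripts. Of these 952 genes, 198 had summed annotated expression of at least 1 FPKM (fragments per kilobase of transcript, relative to all mapped fragments) in all 9 libraries, and only they entered the comparison of usage. The 198 genes carried 425 annotated transcripts, with 2 transcripts in 177 genes, 3 in 16, 4 in 4 and 7 in 1. The other 754 genes fell below 1 FPKM in at least 1 library, and 189 of them were listed at 0 throughout. The members just inside this limit were Enox1, whose lowest library held 1.01 FPKM, and ENSRNOG00000025742 (1.01), and the genes just outside it were Glis3 (0.995), ENSRNOG00000049662 (0.977) and Cklf (0.961).

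A gene gives rise to several isoforms when transcription begins at another first exon, when exons are skipped or exchanged during splicing, or when the transcript ends at another site. Isoforms of a gene can encode proteins with different domains or differ only in their untranslated ends. Neural tissue is known for extensive alternative splicing, and cells that change state can keep the level of a gene while exchanging one isoform for another. For this reason the share of each isoform and the summed level of the gene were treated as separate measurements.

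The libraries form 3 groups of 3. Bone marrow mesenchymal stem cells (MSCs) at passage 3, untreated, were the control. Neural progenitor-like cells (NPCs) were obtained from MSCs at passage 3 by 3 days with EGF, the epidermal growth factor, and bFGF, a fibroblast growth factor, and a further group received EGF, bFGF and insulin-like growth factor 1 (IGF1) for the same 3 days. According to the study's methods the MSCs came from Sprague-Dawley rats as biological replicates, the NPCs were floating spheres in a neural proliferation medium on low-attachment plates, and no library of cells held in that way without growth factors is analysed here, so that growth factors, medium and suspension culture cannot be told apart. The methods do not describe the cells given IGF1, and the sources used here do not give its dose. Vim and Itgb1 were expressed in all 3 groups. Vim reached 562 to 826 FPKM in the 6 induced libraries and 2560 to 3015 FPKM in MSCs. Itgb1 reached 203 to 271 FPKM in the induced libraries and 996 to 1217 FPKM in MSCs. The leukocyte gene Ptprc stayed at or below 0.0142 FPKM and the astrocyte gene Gfap at or below 0.0237. Nes, which encodes the neural progenitor filament nestin, was low in all groups, at 0.268 to 0.331 FPKM in the 6 induced libraries and 0.0534 to 0.152 in MSCs. The files hold no read counts, and the width of the deposited confidence intervals implied depths of 35.9 to 47.6 M reads per library. Coordinates below are those of the files. They do not name a genome build, but their unplaced scaffolds carry the names of the rat assembly Rnor_5.0. A symbol could be paired with 36 of the 198 genes, and the other 162 are given by ID or in counts.

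In 74 of the 198 genes (37.4%), 1 transcript held all of the annotated FPKM in every library. In 79 of the 124 others the same transcript was the highest in each of the 9 libraries, and in 45 the highest transcript differed between libraries. The leading isoform was the longest one in 103 genes (52.0%). The leading isoform was at 100% in every library of the group in 90 genes for NPCs, 92 for NPCs with IGF1 and 89 for MSCs. Each of these counts includes the 74 genes above, so most of each count is the same by construction. Of the 3825 transcript values, 1308 (34.2%) were listed at 0. A value of 0 was not a measured absence, because only 2 of the 2517 values above 0 lay under 10% of the top isoform of their gene and library, the lower of them at 6.37%. An isoform below about 10% of the top one thus appears in these files as 0.

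**Figure D1:**
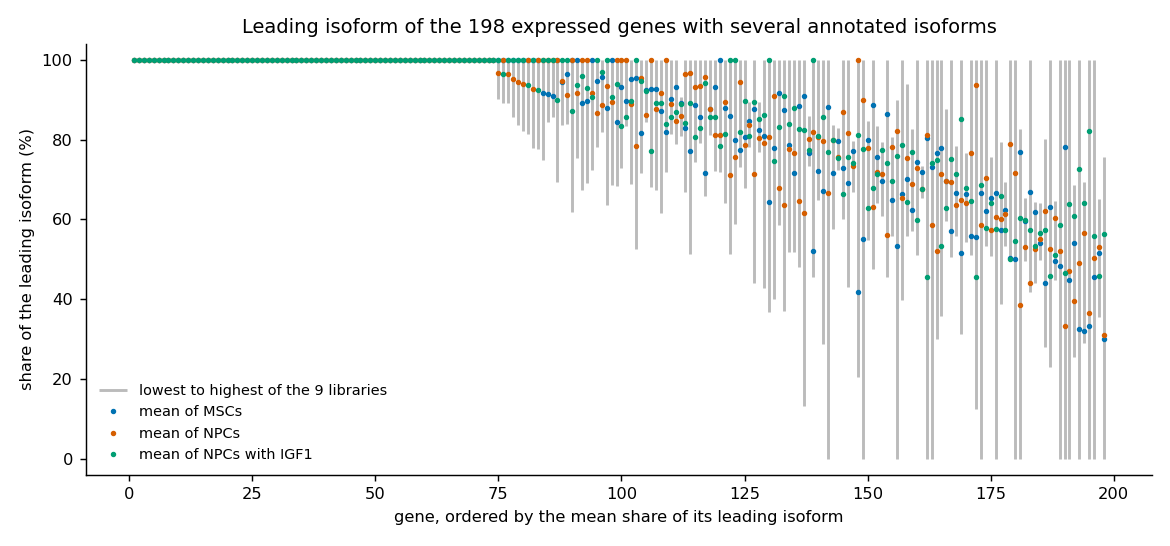
Share of the leading isoform (% of the summed annotated FPKM) for each of the 198 genes, ordered by its mean over 9 libraries. Grey lines run from the lowest to the highest library and points are group means, and 74 genes sit at 100% in every library while others span most of the axis.

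The named genes with a single measured isoform served varied functions. They were all 14 symbols of the 36 that met this description and were chosen after their values were seen. They included the secreted proteins Cfb, a complement factor, and Col6a1, a chain of collagen VI, the transcriptional regulator Tsc22d1, the nascent polypeptide factor Naca, the mitochondrial fission gene Fis1, the nucleoporin Ranbp2 and the kinase genes Prkca and Camk2d. The others were Tmlhe, Tpst1, Ltn1, Fam162a, Tspan7 and Pdcd4. Their summed levels ran from 3.15 FPKM, the lowest library of Tpst1, to 699.9 FPKM, the highest of Tsc22d1, so that a single listed isoform was found at low and at high expression. Camk2d, whose product is a calcium-dependent kinase known for alternative splicing, held 16.4 to 52.0 FPKM over the 9 libraries in a single transcript.

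The structure of the isoforms differed between the genes with 1 measured isoform and those with more. Among the 177 genes with exactly 2 annotated transcripts, 121 pairs shared the start, 37 had first exons that did not overlap, 33 had last exons that did not overlap, and 85 differed by splicing alone. Where 1 isoform held everything (69 genes), first exons did not overlap in 10 pairs (14.5%) and 40 pairs (58.0%) differed by splicing alone. Where both were measured (108 genes), the corresponding numbers were 27 (25.0%) and 45 (41.7%). These shares are a description with no test.

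Several named genes illustrate isoforms that were measured side by side. Mapk14 encodes the stress-activated kinase p38 alpha, and its transcripts, both of 3426 bases on chromosome 20 (chr20:7968539-8028708, plus strand), differ by the exchange of 1 exon of 80 bases at position 9 of 12. The isoform ENSRNOT00000000618 held 74.1, 80.2 and 85.9% in the NPC libraries, 77.6, 79.2 and 75.1% in NPCs with IGF1 and 73.4, 78.9 and 77.5% in MSCs. All 3 groups overlapped. Calu, which encodes the calcium-binding protein calumenin, has isoforms of 3166 bases (chr4:56392772-56420272, plus strand) that exchange an exon of 194 bases at position 3 of 7. Its major isoform ENSRNOT00000008356 held 67.9, 66.5 and 68.4% in NPCs, 68.6, 65.3 and 69.2% in NPCs with IGF1 and 71.6, 70.6 and 73.4% in MSCs, so that each induced library lay below each MSC library. The differences of 4.3 and 4.2 points below MSCs did not pass the test (limma, adjusted p = 0.68 and 0.77).

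Alternative ends and alternative starts were also measured in named genes. For Tfpi, the tissue factor pathway inhibitor, the isoform ENSRNOT00000057685 with the shorter end held 54.5 to 75.0% in the 6 induced libraries and 60.5 to 76.7% in MSCs. In Arpc1a, a subunit of the actin-nucleating Arp2/3 complex, the longer-ended isoform ENSRNOT00000001319 held 50.9 to 66.6% in the induced libraries and 54.6 to 75.7% in MSCs. The first exons of Fbxw7, the substrate-binding part of a ubiquitin ligase, are 267 and 519 bases long, and the isoform with the shorter one, ENSRNOT00000015279, held 58.2 to 83.6% in the induced libraries but 39.8, 100 and 59.1% in the MSC libraries. Lap3, an aminopeptidase gene, and Svbp, whose product binds vasohibins, varied as much within the groups. The longer isoform of Lap3 ran from 38.5 to 80.2% within NPCs alone, and ENSRNOT00000066169 of Svbp from 25.5 to 64.5%. None of these transcripts passed the test in any comparison.

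In other named genes an isoform appeared and vanished between replicates of a group. Pitpnb, which encodes a phosphatidylinositol transfer protein, has an exon of 84 bases (exon 11 of 12) that is absent from its shorter transcript. The isoform with this exon, ENSRNOT00000066892, held 73.0 to 100% in replicates 1 and 2 of every group and was listed at 0 in replicate 3 of every group. The summed FPKM of Pitpnb was lowest there too, with 10.8, 22.4 and 3.25 in NPCs, 19.7, 14.4 and 2.71 in NPCs with IGF1 and 26.3, 36.5 and 2.57 in MSCs. The third library of each group was therefore the low one. The cholesterol receptor gene Scarb1 has 3 isoforms, and ENSRNOT00000001301 held 84.3% in 1 NPC library and 0 and 15.1% in the others. Isoforms of B9d1, Alg3, Eva1c, Suds3, Pald1, Enox1, Qsox1, Atf2, Tada1 and Aldoc also moved between 0 and larger shares within a group, or by more than 10 points. In Ddx55 and Pxn the second isoform was listed above 0 in 1 library only, at 22.3% and 10.7%.

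The spread between replicates limits what can be seen. Over the 142 tested transcripts whose share varied, the median SD within a group was 9.58 points for NPCs, 7.08 for NPCs with IGF1 and 8.90 for MSCs (n = 3 each). The pooled SD was 13.7 points at the median for genes under 5 FPKM (34 transcripts), 11.5 from 5 to 20 FPKM (69) and 10.9 at 20 FPKM and over (39). It moved with structure as well, being 7.95 points where each isoform had at least 50 bases of its own (41 transcripts) and 12.9 where an isoform had none (79). Of the 425 transcripts, 125 had no base that another isoform of the gene lacks. These medians carry no test.

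**Figure D2:**
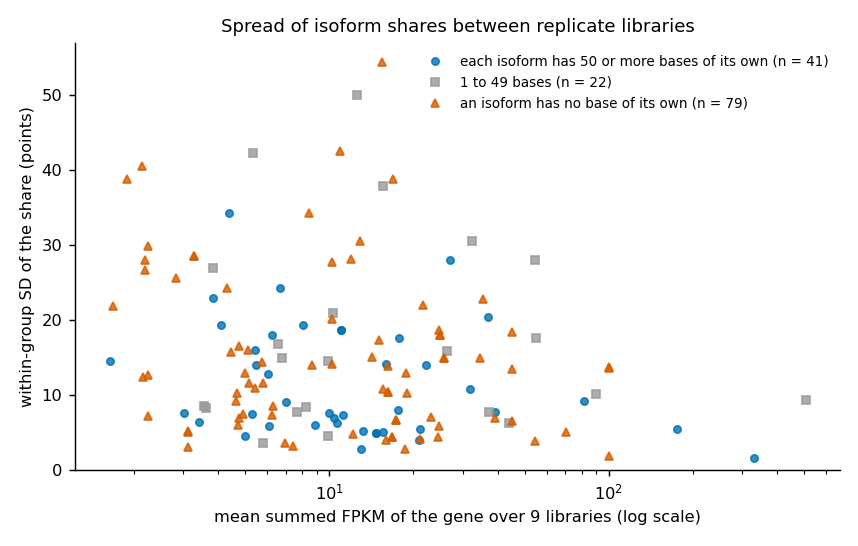
Pooled within-group SD of the isoform share (percentage points) against the mean summed FPKM of the gene on a log scale, 1 point per tested transcript with a varying share (142 points), by the smallest number of bases that an isoform of the gene has to itself. Low values occur at all expression levels, and Calu, with 194 such bases, has the smallest SD, 1.56 points.

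The first comparison asked whether induction with EGF and bFGF changed which isoforms MSCs used. It called 3 of the 198 genes (1.52%), which were ENSRNOG00000005585, ENSRNOG00000018740 and ENSRNOG00000042912. Usage was tested in these 198 genes only, so no share over other genes can be set beside this one. A call needed an adjusted p (Benjamini-Hochberg) no higher than 0.05 in limma, fitted to the log2 ratio of the transcript to the other isoforms of its gene over all 9 libraries, together with a difference of at least 10 percentage points between the group means. Of the 216 transcripts tested, 3 (1.39%) were called, 45 had an unadjusted p under 0.05 and 13 reached the adjusted threshold. But 10 of those 13 were transcripts at 100% in every library, whose ratio only follows the FPKM of the gene. Such transcripts made up 74 of the 216, so the 45 do not all concern usage. In the limma fit restricted to the 142 transcripts with a varying share, 11 had an unadjusted p under 0.05. Differences of 10 points or more were found for 57 transcripts, 31 higher and 26 lower in NPCs, and for 17 of the 216 (7.87%) the libraries of the groups did not overlap as well. The median difference over the 142 varying transcripts was 7.83 points, under the median SD within NPCs and MSCs.

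**Figure D3:**
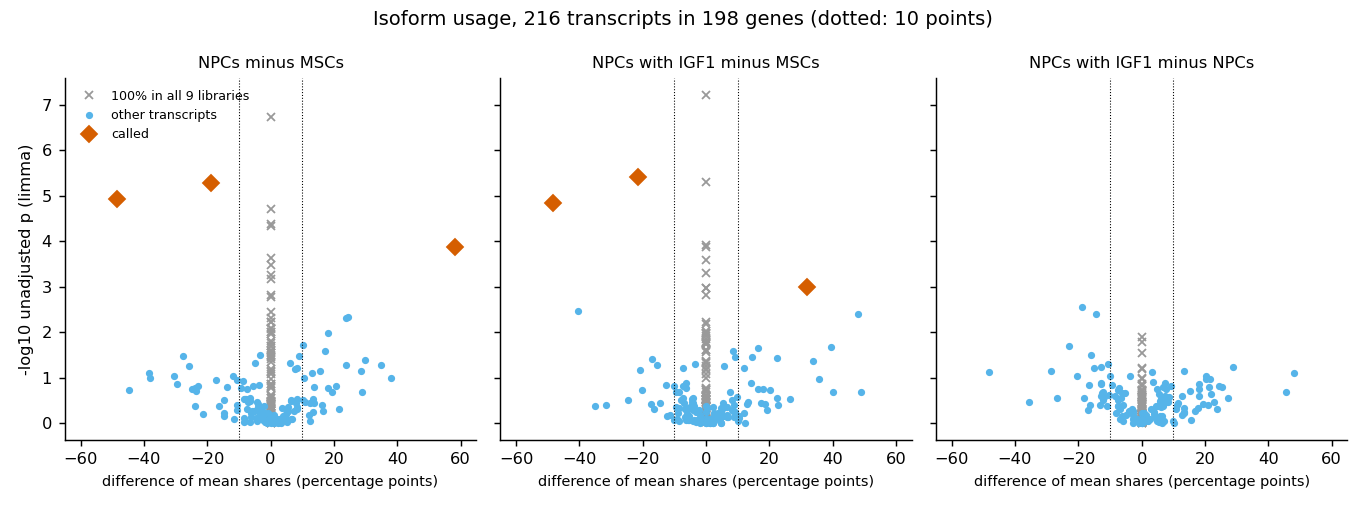
Difference of mean isoform share between groups (percentage points) against the -log10 of the unadjusted limma p for 216 transcripts in each comparison. Orange diamonds are called transcripts, 3 in each comparison with MSCs and 0 between the induced groups, and grey crosses at 0 are transcripts at 100% in all 9 libraries.

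ENSRNOG00000018740 was the only gene whose leading isoform differed between MSCs and the induced cells in every library. It lies on chr9:94910377-94990037, plus strand, and 6 of its 7 annotated transcripts consist of a first exon of 855 to 940 bases joined to 4 shared exons. Its remaining transcript joins a pair of shorter exons to the same 4. Only 3 of the 7 had FPKM above 0 in any library. ENSRNOT00000063853, which starts nearest to the shared exons of these 3, held 53.5, 42.8 and 48.7% in MSCs (1.66, 1.27 and 1.20 FPKM) and was listed at 0 in all 6 induced libraries. The difference was 48.3 points in NPCs and in NPCs with IGF1 (adjusted p = 8.6e-04 and 7.9e-04). ENSRNOT00000025652, which starts farther upstream, led in every induced library, with 56.1, 55.4 and 58.6% in NPCs and 67.9, 54.9 and 69.5% in NPCs with IGF1, against 30.6, 36.6 and 29.1% in MSCs. It was 31.9 points higher in NPCs with IGF1 than in MSCs (adjusted p = 0.021) and 24.6 points higher in NPCs, which did not pass (adjusted p = 0.063). The call in NPCs with IGF1 was lost in 9 alternative settings (adjusted p = 0.051 to 0.48), among them the fits without NPC_IGF1 replicate 1 or 3 (0.077 and 0.085), without MSC replicate 1 or 3 (0.081 and 0.066) and with the replicate number as a block (0.084). The third measured isoform, ENSRNOT00000032634, held 41.4 to 44.6% in NPCs and 15.9 to 22.2% in MSCs and did not pass either (adjusted p = 0.063).

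The exchange in ENSRNOG00000018740 came without a called change in the sum of its annotated transcripts. This sum leaves out unannotated ones. With them in the sum, ENSRNOT00000063853 stayed 48.3 points lower in both induced groups and stayed called. ENSRNOT00000025652 was then 21.5 points higher in NPCs with IGF1 than in MSCs and did not pass (limma, adjusted p = 0.48). The gene's summed FPKM was 3.52, 3.44 and 3.11 in NPCs, 2.10, 3.79 and 3.44 in NPCs with IGF1 and 3.10, 2.96 and 2.46 in MSCs, and the log2 fold changes against MSCs were 0.28 and 0.09 (adjusted p = 0.49 and 0.84). All values of this gene are low. The deposited 95% interval of ENSRNOT00000063853 in the first MSC library ran from 1.34 to 1.97 FPKM. Its deposited upper bound in the first NPC library, 0.022 FPKM, belongs to a value listed at 0. Isoforms below about 10% of the top one are listed that way, so this bound does not limit the level of the isoform. In a further fit, each isoform listed at 0 was set at 10% of the top isoform of its library. The difference was 43.0 points in NPCs and 42.3 points in NPCs with IGF1 and stayed called (limma, adjusted p = 2.0e-04 in both). In the induced libraries the value of ENSRNOT00000063853 then follows a fixed rule, so its spread was not measured. These p-values therefore do not test whether the call depends on the zeros. The gene ENSRNOG00000023172 overlaps it on the other strand.

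ENSRNOG00000005585 differed by the inclusion of a pair of neighbouring exons. It lies on chr6:81940488-82026817, minus strand. ENSRNOT00000007509 has 18 exons and 4153 bases, and ENSRNOT00000068293 has 16 exons and 3901 bases and lacks exons 8 and 9, which are 111 and 141 bases long, 252 in all. The longer isoform held 23.1, 17.9 and 15.5% in NPCs (4.21, 4.34 and 2.95 FPKM) and 16.0, 20.4 and 28.1% in NPCs with IGF1 (3.21, 4.12 and 3.61 FPKM). In all 3 MSC libraries it was listed at 0, so that the shorter isoform stood at 100%. The share of the shorter isoform was 18.8 points lower in NPCs and 21.5 points lower in NPCs with IGF1 (adjusted p = 5.6e-04 and 3.6e-04). The summed FPKM was 18.2, 24.3 and 19.0 in NPCs and 27.0, 28.2 and 21.0 in MSCs, a log2 fold change of -0.26 (adjusted p = 0.38).

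This call rests on the zeros of the MSC libraries. ENSRNOG00000018740 and ENSRNOG00000042912 also had an isoform listed at 0 in every library of a group. A group of such values has no measured spread. With isoforms listed at 0 set at 10% of the top isoform, the shorter isoform of ENSRNOG00000005585 was 9.74 points lower in NPCs and 12.4 points lower in NPCs with IGF1, and neither passed (adjusted p = 0.081 and 0.060). Cufflinks marked all introns and inner exons of the longer isoform as covered by reads in 2 of the 3 NPC libraries, in 1 of 3 with IGF1, and in 1 of 3 MSC libraries, where its FPKM was 0. An unannotated transcript took 45.2% of the gene's FPKM in the third library with IGF1 and 0 in the other 8. The gene ENSRNOG00000005765 overlaps on the other strand.

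The gene ENSRNOG00000042912 differed by its first exon. It lies on chr10:82051977-82072661, minus strand, and its transcripts share all but the first of 19 exons, which is 43 bases long in ENSRNOT00000066132 and 52 bases long in ENSRNOT00000075795. ENSRNOT00000066132 stood at 100% in all 3 NPC libraries (5.13, 8.10 and 6.09 FPKM), at 75.9, 80.5 and 87.3% in NPCs with IGF1, and at 30.8, 74.2 and 20.5% in MSCs. Its share was 58.2 points higher in NPCs than in MSCs (adjusted p = 4.1e-03). The other isoform was thus listed at 0 in every NPC library. With isoforms at 0 set at 10% of the top isoform, the difference was 49.1 points and stayed called (limma, adjusted p = 0.030). In that setting the F test over all groups did not call this gene. Against MSCs the 39.4 points of NPCs with IGF1 did not pass (adjusted p = 0.17), although the libraries did not overlap, and the second MSC library lay close to the induced ones. With unannotated transcripts in the sum, the difference of NPCs was 26.6 points and did not pass (adjusted p = 0.43). Such transcripts made up 47.1, 16.9 and 43.1% of the gene's FPKM in NPCs, 0 in NPCs with IGF1 and 0, 16.4 and 0% in MSCs.

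**Figure D4:**
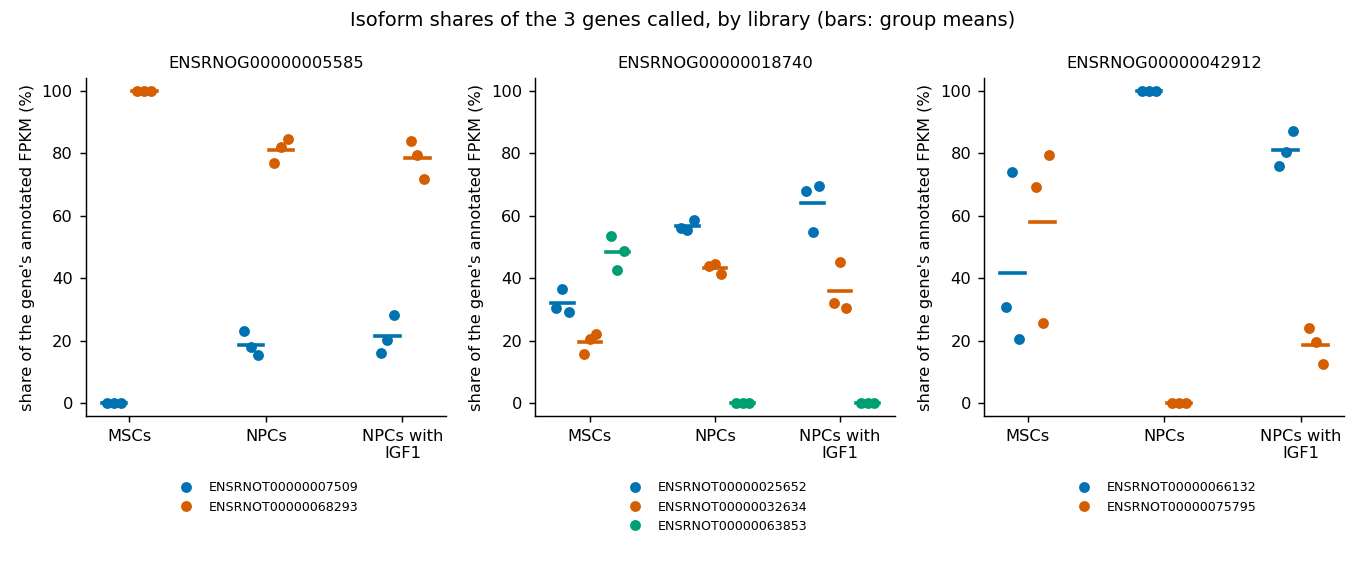
Share of each isoform (% of the gene's annotated FPKM) in each library of the 3 genes called, with group means as bars and n = 3 per group. Isoforms at 0 in all 9 libraries are not drawn, and ENSRNOT00000063853 of ENSRNOG00000018740 lies at 42.8 to 53.5% in MSCs and at 0 in the induced libraries.

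**Figure D5:**
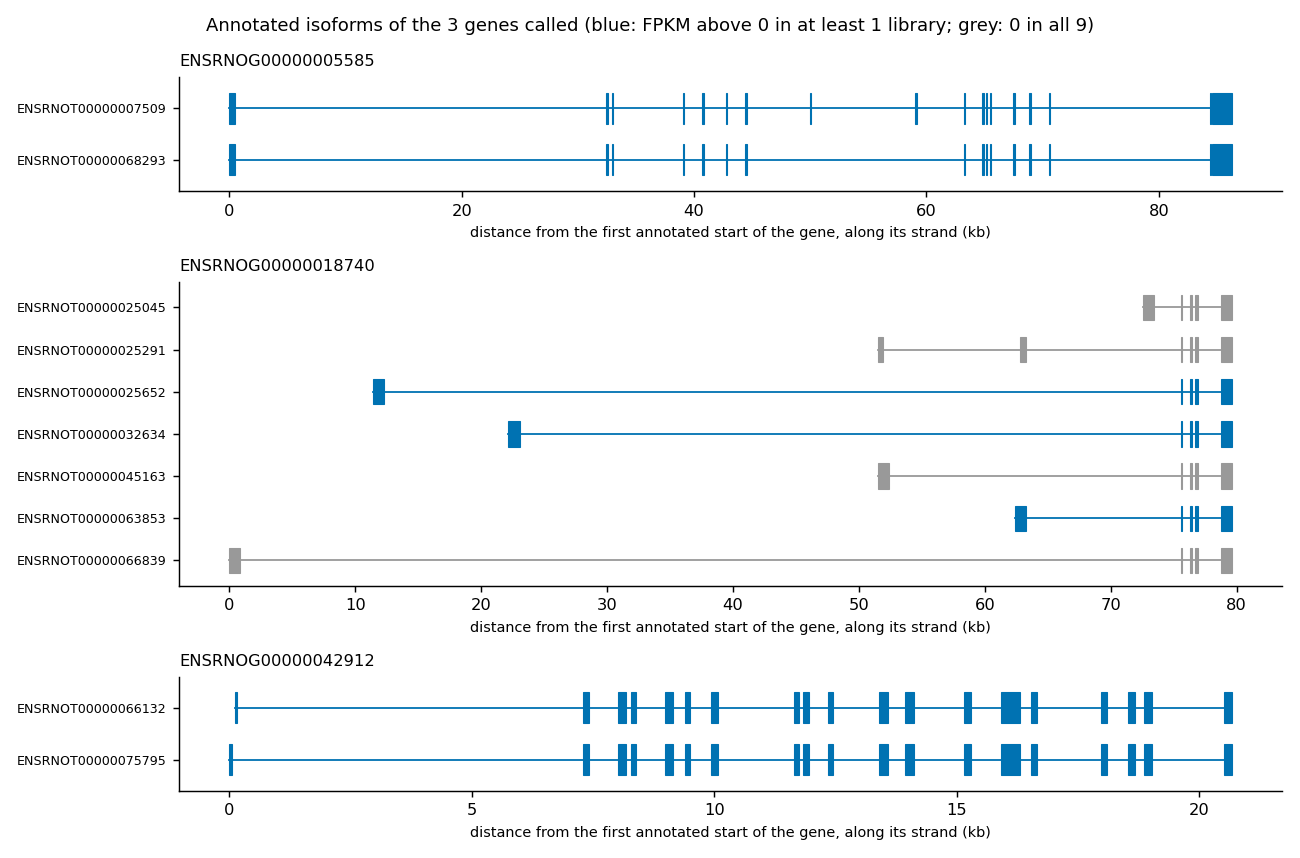
Exons (boxes) and introns (lines) of every annotated isoform of the 3 genes called, to scale in kb from the first annotated start along the strand of the gene. The isoforms differ by 2 inner exons in ENSRNOG00000005585, by the first exon in ENSRNOG00000018740 (4 of 7 isoforms, in grey, were at 0 in all libraries) and by the first exon in ENSRNOG00000042912.

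Cells induced with EGF, bFGF and IGF1 were compared with the same MSC libraries, so that the values above are not independent between the comparisons. Usage was called in 2 of the 198 genes (1.01%), ENSRNOG00000005585 and ENSRNOG00000018740, with 3 transcripts called (1.39% of 216). Of the 216 transcripts 42 had an unadjusted p under 0.05 and 12 passed the adjusted threshold. Of these 12, 9 stood at 100% in every library. In the limma fit restricted to the 142 transcripts with a varying share, 13 had an unadjusted p under 0.05. Differences of 10 points or more were found for 46 transcripts, and for 11 of the 216 (5.09%) the groups did not overlap as well. Over all 3 groups, limma's F test called the same 3 genes as the comparison of NPCs with MSCs (1.52%).

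The addition of IGF1 to EGF and bFGF gave no call. In the comparison of NPCs with IGF1 and NPCs, limma called 0 of 198 genes (0%). An unadjusted p under 0.05 was found for 8 of the 216 transcripts, and for 5 of 142 in the fit restricted to varying shares. Differences of 10 points or more occurred in 59 transcripts, and in 8 of the 216 (3.7%) the groups did not overlap as well. The lowest adjusted p was 0.43, for ENSRNOT00000066132 of ENSRNOG00000042912, which was 18.8 points lower with IGF1. Among named genes the lowest p-values belonged to Camk2d, Pxn, Scarb1 and Aldoc, each with an adjusted p of 0.78. Camk2d stood at 100% throughout, so its p follows the FPKM of the gene and not its usage. Pxn differed by 3.56 points, and its second isoform was listed above 0 in a single library. Isoform ENSRNOT00000064276 of Scarb1 was 25.5 points higher and the main isoform of the glycolytic gene Aldoc 6.62 points higher with IGF1. The median SE for varying transcripts was 1.43 on the log2 ratio scale. This SE is not a limit of detection, because a difference must clearly exceed its SE to pass the adjusted threshold. The differences of 18.8 and 25.5 points did not pass, so the lack of calls does not show that usage was unchanged.

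The summed levels of the same genes were tested separately. In the fit of 9710 genes, 21 of the 198 (10.6%) passed between NPCs and MSCs, at an adjusted p up to 0.05 and a change of 1 or more on the log2 scale, where 14% of all genes and 11.4% of the 4067 expressed genes with a single annotated transcript passed. Of the 21 genes, 12 were higher in NPCs (7.32% of all genes were) and 9 lower (6.7% of all genes). For NPCs with IGF1 against MSCs the numbers were again 12 higher and 9 lower (10.6%, against 14.1% of all genes, of which 7.37% were higher and 6.7% lower). Between the induced groups limma called 0 of the 198 genes, with 8 at an unadjusted p under 0.05, against 0.154% of all genes (0.0824% higher and 0.0721% lower). None of the 3 genes called for usage was called for its sum in any comparison.

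Among the named genes, 6 rose and 4 fell in their sum in NPCs, and none of the 10 was called for usage. Col6a1 rose from 261, 229 and 233 FPKM in MSCs to 641, 622 and 510 in NPCs (log2 fold change 1.33 ± 0.15 SE, adjusted p = 1.1e-03), all in 1 isoform. Fbxw7 rose by 1.67 ± 0.20 (adjusted p = 1.3e-03) and Tfpi by 1.63 ± 0.40 (adjusted p = 0.028). Tpst1, a sulfotransferase gene, Enox1 and Aldoc also rose, by 1.27, 1.51 and 1.27. Calu fell by 1.28 on the log2 scale (SE 0.09, adjusted p = 1.5e-04), from 538, 611 and 475 FPKM in MSCs to 198, 230 and 217 in NPCs. Scarb1, Tsc22d1 and Camk2d fell by 1.50, 1.16 and 1.15. All of these genes except Enox1 also passed in the same direction with IGF1. The names of Fbxw7, Tfpi, Aldoc, Enox1, Calu and Camk2d come from a table of genes that the study selected on these samples. Naming from such a table favours genes whose sum changed. The count among the named genes is therefore not comparable with the share of all 198 genes. The study also lists Col6a1 among the collagen genes higher in NPCs. All 10 sums come from the study's own samples, so that none of these directions is independent evidence.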

How the data were processed

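Polyadenylated RNA from 9 rat cell cultures (300 ng of total RNA each) was sequenced single-end with a stranded kit. Each deposited file lists the transcripts of 1 library, and per the labels the authors used CASAVA 1.8, bcl2fastq, TopHat, Bowtie2, Cufflinks and Cuffdiff. The files' attribute text gives FPKM as deposited, with 95% intervals, alongside other text such as the read support of introns. The deposited score column was not used. The genome build of these files and their annotation release are not given in the sources used here. STAR and RSEM appear in the study's methods, but values of that route were not used.

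Of 29145 annotated transcripts, 22125 carried a gene ID in at least 1 file, and the 7020 others were not analysed here. FPKM were summed over the annotated transcripts of a gene, and a transcript missing from a file counted as 0. Transcripts needed a share of 5% in at least 3 libraries, and of 2-transcript genes only the isoform of higher mean share was tested. Usage was tested in R 4.3.3 by limma 3.58.1, with trended and robust eBayes, on log2((FPKM + 0.1)/(FPKM of the other isoforms + 0.1)) over 9 libraries. Sums were divided by size factors of 0.951 to 1.08 and fitted as log2(FPKM + 0.1), for genes of at least 0.1 FPKM in at least 3 libraries, so fold changes of low genes are understated. Depth was read from the interval widths of transcripts of 1 to 100 FPKM and at least 1000 bases in genes with a single annotated transcript. Tables used Python 3.11.15, numpy 2.4.6, pandas 2.3.3 and matplotlib 3.10.9. Each fit was first tested on simulated data.

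The genes and lists were chosen with earlier results of these data known. Symbols came from 2 kinds of supplementary rows, in gene ID order (28 of the 36 members named) and of genes selected as differential (8). The 12 textbook lists (373 symbols) matched 0 named members, so no list is reported. The naming rule took called genes with a symbol, of which there were none, at most 2 IDs in each direction per comparison, and the 4 named genes of lowest p with IGF1 against NPCs. Other names were chosen after their values were seen. A named member is not reported here. Alternatives were pseudocounts, minima, scales, unannotated transcripts, blocks, sets of libraries and leaving out each library.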

Additional observations from a re-analysis of the deposited data

Results flagged for a closer look

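Unannotated transcripts, which the shares leave out, took more of the FPKM of these genes in the induced cells than in the untreated MSCs. The mean over the 198 genes was 13.6, 13.0 and 10.2% in NPCs (12.3% ± 1.82 SD, n = 3), 11.2, 11.8 and 12.0% in NPCs with IGF1 (11.7% ± 0.40) and 9.11, 7.17 and 7.16% in MSCs (7.81% ± 1.12). Each induced library lay above each MSC library. Between 54 and 75 of the 198 genes had such a transcript in the induced libraries and 39 to 52 in MSCs. The difference itself was not tested. No such value is given for other genes, so it is not shown to be particular to these 198.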

How the results depend on the processing

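Counts are small, so 1 gene can move them. For usage in NPCs against MSCs (3 genes) the count was 5 with no FPKM minimum, 1 at a minimum of 5 FPKM, 5 with unannotated transcripts in the sum, 13 with no minimum share difference and 3 to 6 on leaving out 1 library, with 6 without NPC replicate 3 and 5 without MSC replicate 1 or MSC replicate 2. For NPCs with IGF1 against MSCs (2 genes) it was 1 at 5 FPKM, 1 on the arcsine scale, 11 with no minimum difference, 1 with isoforms at 0 set at 10% of the top isoform and 2 to 5 on leaving out 1 library, with 5 without MSC replicate 2 and 4 without MSC replicate 3. For NPCs with IGF1 against NPCs (0 genes) it was 1 with a pseudocount of 0.01, 2 with unannotated transcripts, 1 in a fit of 6 libraries and 0 to 1 on leaving out 1 library, with 1 without NPC replicate 3, NPC_IGF1 replicate 3, MSC replicate 1 or MSC replicate 2. Over all groups (3 genes) it was 5, 1, 5, 1, 13 and 1 with no FPKM minimum, 5 FPKM, unannotated transcripts, the arcsine scale, no minimum difference and isoforms at 0 set at 10%, and 3 to 6 on leaving out 1 library, with 6 without NPC replicate 3 and 5 without NPC_IGF1 replicate 3 or MSC replicate 3. The genes that differ by a leading isoform (1, 1 and 0 in the 3 comparisons) were 0 against MSCs at 5 FPKM, for NPCs and for NPCs with IGF1 alike. On leaving out 1 library they were 1 to 3, 1 to 3 and 0 to 3, with 3 without MSC replicate 2 in the first 2 comparisons and 3 without NPC_IGF1 replicate 3 in the last. Gene sums called between the induced groups (0) were 0 to 1, with 1 without NPC replicate 1. The cause of these moves was not tested, with 2 exceptions. The 5 FPKM minimum leaves out both ENSRNOG00000018740 and ENSRNOG00000042912, and the 10 points remove transcripts at 100% in every library.

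ENSRNOG00000005585, ENSRNOG00000018740 and ENSRNOG00000042912 stayed called for NPCs against MSCs in each of the 9 fits without 1 library, and the first 2 of them did so for NPCs with IGF1 against MSCs. ENSRNOG00000005585 was not called on the arcsine scale (adjusted p = 0.059 and 0.056) or with isoforms at 0 set at 10% of the top isoform, a setting chosen after the data were seen, as was the fit restricted to transcripts with a varying share, which called the same 3 and 2 genes. The call of ENSRNOT00000025652 for NPCs with IGF1 against MSCs was lost with unannotated transcripts in the sum (21.5 points, adjusted p = 0.48), on the arcsine scale (0.24), with the replicate block (0.084), without NPC_IGF1 or MSC replicate 1 or 3 (0.066 to 0.085), with only varying shares (0.051) and with isoforms at 0 set at 10% (0.064). On the arcsine scale and with isoforms at 0 set at 10%, limma's F test over all 3 groups did not call ENSRNOG00000042912. The 6 called share differences kept their direction in each setting that gave them a value. The NPCs were induced from the MSCs of the same 3 rats, but no label ties a replicate number to a rat. Same-numbered libraries correlated at -0.097 to 0.12 in their deviations from the group means and other pairs at -0.14 to 0.15. Of the 9 libraries, 4 correlated best with their own number. The values of Pitpnb did follow the number, with an isoform at 0 in replicate 3 of every group, and the cause was not tested. With the replicate block, usage was called in 3, 2 and 0 genes and 3 over all groups, and sums in 17 (10 higher and 7 lower), 18 (10 and 8) and 0.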
